A study of Mus musculus with 6 samples.

Results

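Of the 12393 genes that this mouse array measured, 9 were members of the TNF receptor superfamily chosen by name: Tnfrsf18, Tnfrsf4, Tnfrsf9, Tnfrsf1a, Tnfrsf1b, Cd27, Fas, Ltbr and Cd40. They were read by all 13 probe sets, of 22626, whose platform annotation gave exactly 1 of these symbols. RNA came from CD4+CD25+ regulatory T cell preparations of C57BL6 mice, with 3 samples from HDAC3-fl/fl_FOXP3cre animals (HDAC3 samples) and 3 from Wild type animals (WT_control samples), each on 1 Affymetrix Mouse430a array. In the HDAC3 group a floxed Hdac3 gene, encoding a histone deacetylase, is combined with a Cre recombinase named for Foxp3, so deletion is limited to cells that have expressed that Cre. The labels do not say whether WT_control animals carry the Cre, give no age, and do not state whether each sample is a separate animal. The spread behind every p-value is that among these samples and may be technical.

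These receptors sit in the plasma membrane, carry cysteine-rich repeats outside the cell and are engaged by ligands of the TNF family that act as trimers. Most of them recruit TRAF adaptors that lead to NF-kB and mitogen-activated kinases, whereas Fas and TNF receptor type 1 carry a death domain that recruits FADD or TRADD. Regulatory T cells are known for high surface GITR (Tnfrsf18), OX40 (Tnfrsf4) and TNF receptor type 2 (Tnfrsf1b), while CD40 and the lymphotoxin beta receptor are best known on antigen-presenting, myeloid and stromal cells.

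Values are log2 expression after robust multiarray average (RMA) normalization, and a difference is HDAC3 minus WT_control. A gene is said to have risen or fallen where its limma adjusted p (Benjamini-Hochberg over all 22626 probe sets) was below 0.05, and a gene with several probe sets is counted by its brightest one. Signal at or below 5.16, the highest value of 27 bacterial control probe sets whose range began at 2.37, is called background.

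Several facts of the whole set of arrays bear on every result. The targeted gene Hdac3 measured 8.46, 8.51 and 8.50 in HDAC3 samples, against 9.07, 9.04 and 9.01 in WT_control samples, a difference of -0.55 (limma adjusted p = 0.000125), and whether that probe set reads the floxed part is not known here. The titles and genotype field name HDAC3, while the source field of the same 3 samples names HDAC11 and their description HDACII. The groups here follow the titles. Hdac11 averaged 4.89 in HDAC3 samples, in the background, and 5.47 in WT_control samples, at least 1.24-fold lower (limma adjusted p = 0.000996), so the array does not settle which label is right. Its second probe set was in the background by its mean in both groups. The sort markers were above background in both groups and moved apart: Cd4 averaged 9.17 in HDAC3 samples and 10.19 in WT_control samples and fell by 1.02 (limma adjusted p = 9.29e-06), while Il2ra (CD25) averaged 9.96 in HDAC3 samples and 9.25 in WT_control samples and rose by 0.71 (adjusted p = 4.17e-05). The Foxp3 probe set lay in the background in both, at 3.68 in HDAC3 samples and 3.77 in WT_control samples, so the array gives no check of Foxp3. The mean of the 4 CD3 genes, which encode the T cell receptor's signalling chains, was 10.77, 10.75 and 10.73 in HDAC3 samples, against 12.17, 12.26 and 12.22 in WT_control samples, and fell by 1.47.

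Markers of other cells differed between the groups to unlike extents. Their counts stand beside 22.0% of all genes that rose and 38.0% that fell. Of 19 macrophage markers 18 rose and 1 fell (median 7.08). The summed linear signal of the 19 was 111447 to 114771 in HDAC3 samples and 706 to 748 in WT_control samples. The 1 that fell, Clec4f, averaged 4.89 in HDAC3 samples, in the background, and 5.21 in WT_control samples. All 13 measured neutrophil markers rose, with sums of 40883 to 41834 in HDAC3 samples and 390 to 522 in WT_control samples. Of 9 dendritic cell markers 4 rose and 1 fell, with sums of 3844 to 3958 in HDAC3 samples and 3390 to 3413 in WT_control samples. Ccr7, the 1 that fell, averaged 11.62 in WT_control samples and 10.70 in HDAC3 samples and made up most of the WT_control sum. Itgax rose by 4.29, Ccl22 by 0.84 and Flt3 by 0.38, and Batf3 was at least 35.6-fold higher in HDAC3 samples. By their means Xcr1, Zbtb46, Ccl17 and Cd209a stayed in the background in both groups. Of 11 B cell markers 3 rose, 2 fell and 6 were not called, with a median difference of -0.06. Their sums were 1138 to 1240 in HDAC3 samples and 479 to 519 in WT_control samples. Of the called B cell markers, 1 rise (Fcer2a) and 1 fall (Blk) were in the background in both groups. Cd22 rose by 2.45 and Cd79b by 1.01, while Ms4a1 and Pax5 were in the background in both groups. Of 5 natural killer cell markers 3 rose, with sums of 204 to 229 in HDAC3 samples and 122 to 128 in WT_control samples, while Ncr1 was in the background in both. The part of these cells in the receptor differences below was not tested, and in bulk RNA fewer cells of a type and less RNA per cell cannot be told apart.

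The 9 receptors split by direction. Ltbr, Cd40, Tnfrsf1a and Tnfrsf1b rose, and Cd27, Tnfrsf9, Fas, Tnfrsf18 and Tnfrsf4 fell on the deposited scale. Relative to the CD3 genes, Cd27 alone of the 9 was lower and the other 8 were higher. A value above 0 on that scale was shared by 98.5% of the 12393 genes, so it is not read as particular to these receptors. Tnfrsf18, Tnfrsf4, Tnfrsf9 and Fas stayed under the 1.30 that was the genes' median there, while Ltbr, Cd40, Tnfrsf1a and Tnfrsf1b lay over it. The members that rose, 4 of 9, stand beside 22.0% of all genes, and the 5 that fell beside 38.0% of all genes. Past 2-fold as well, Ltbr, Cd40 and Tnfrsf1a rose (9.04% of all genes) and Cd27 fell (4.46% of all genes). The values of the groups did not overlap in any of the 9, against 67.4% of all genes without overlap, so separation alone was common on these arrays. Of the 13 probe sets of these genes 11 were called, against 57.6% of all probe sets. The members' median difference was -0.30, against -0.17 over all genes.

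**Figure D1:**
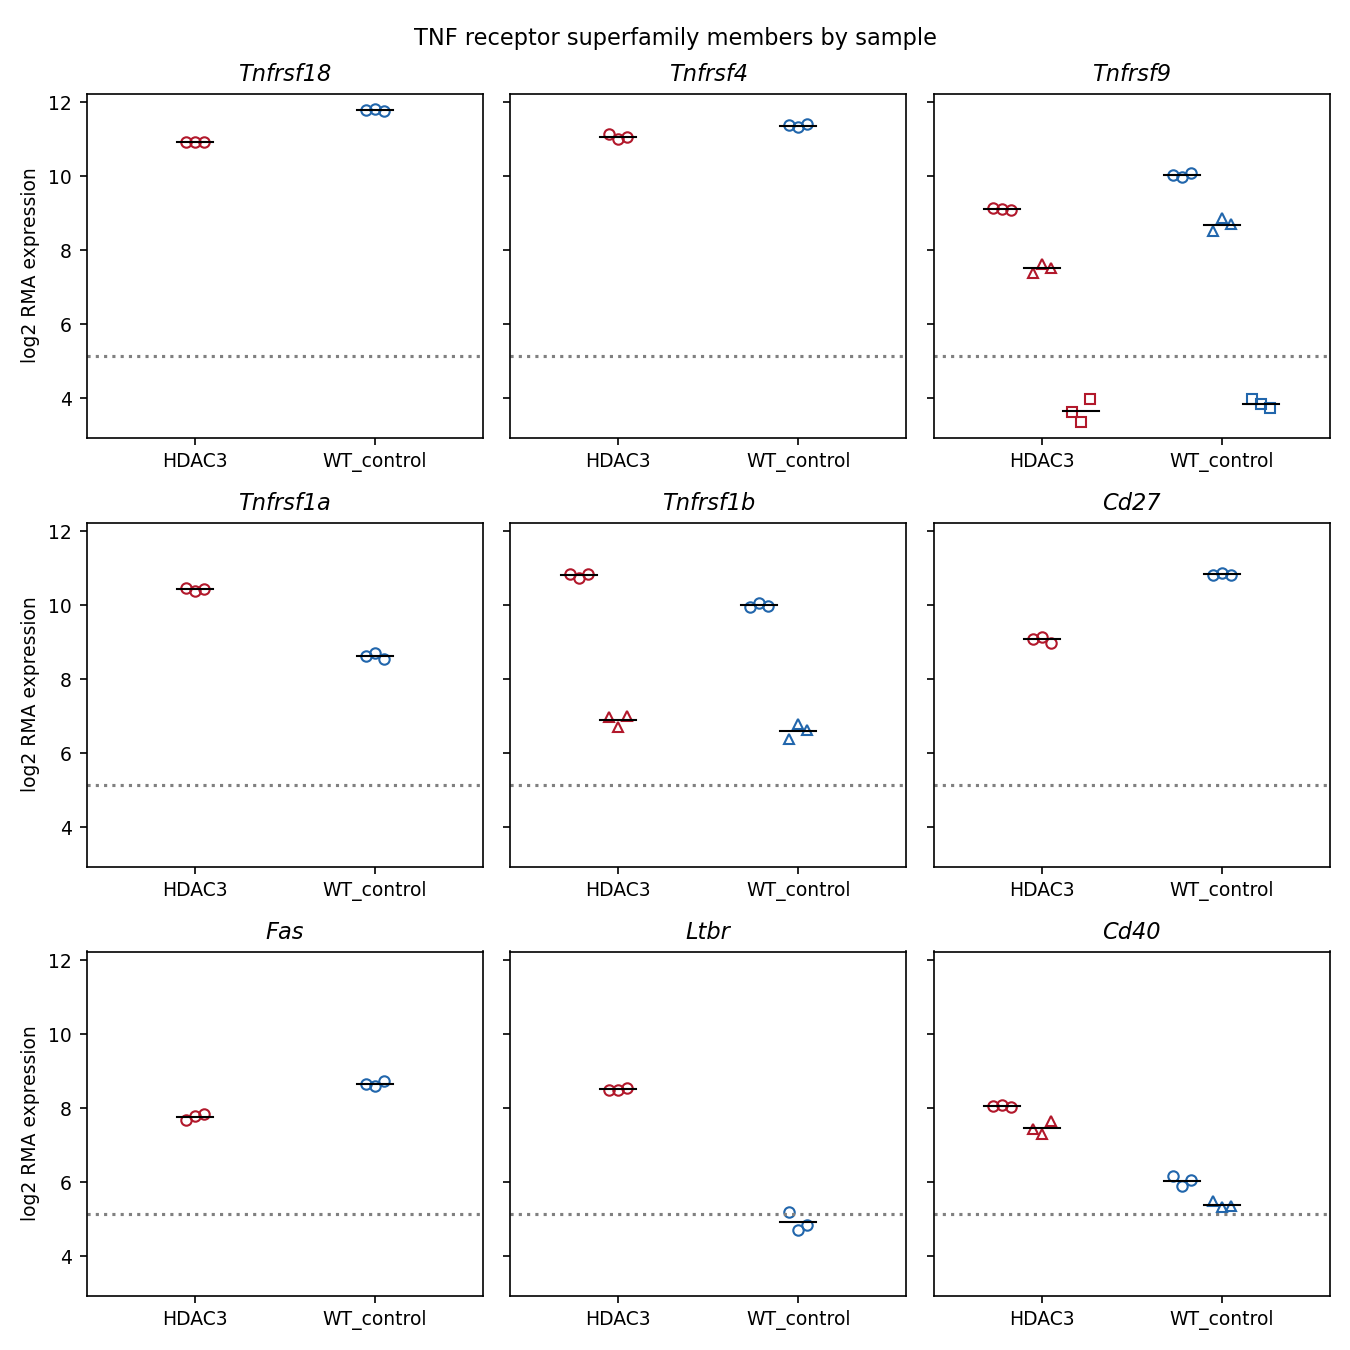
Log2 RMA expression of the 9 receptors in each sample (y axis), with HDAC3 samples left in red and WT_control samples right in blue, 3 each. Circles, triangles and squares are a gene's probe sets from brightest to dimmest, black lines are means and the dotted line at 5.16 is the top of the background range. The lowest Tnfrsf9 probe set lies under the line in both groups, and Ltbr crosses it only in WT_control samples.

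The genes of 5 of the members are arranged in clusters, and the neighbours on chromosome 6 moved in opposite directions. In the RefSeq gene table (GRCm38.p6) Cd27, Ltbr and Tnfrsf1a follow each other with 2 other protein-coding genes among them, and Tnfrsf4 and Tnfrsf18 are adjacent on chromosome 4. Cd27 fell while Ltbr and Tnfrsf1a rose, also relative to the CD3 genes. Between the last pair, Scnn1a, a subunit of the epithelial sodium channel, measured 6.04 ± 0.190 in HDAC3 samples and 5.55 ± 0.194 in WT_control samples (SD, n = 3 each), and rose by 0.49 (limma adjusted p = 0.0142). Tuba3a, between Cd27 and Ltbr, was not analysed here. The 250 bases before the annotated start of each of the 3 chromosome 6 receptors, and of a start of Tnfrsf9, are shown because they are the promoter windows of neighbours that moved apart and the one window of these genes with matches to both a kappa B and an AP-1 motif. They are from RefSeq, GRCm38.p6, written 5′ to 3′ on the gene's strand, with motif matches in capitals.
Cd27 (chr6:125237028-125237277, minus strand): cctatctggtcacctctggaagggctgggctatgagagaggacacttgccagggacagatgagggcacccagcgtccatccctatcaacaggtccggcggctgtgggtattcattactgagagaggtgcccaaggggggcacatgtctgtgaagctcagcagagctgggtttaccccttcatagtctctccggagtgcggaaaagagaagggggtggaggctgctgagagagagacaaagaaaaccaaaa
Ltbr (chr6:125313886-125314135, minus strand): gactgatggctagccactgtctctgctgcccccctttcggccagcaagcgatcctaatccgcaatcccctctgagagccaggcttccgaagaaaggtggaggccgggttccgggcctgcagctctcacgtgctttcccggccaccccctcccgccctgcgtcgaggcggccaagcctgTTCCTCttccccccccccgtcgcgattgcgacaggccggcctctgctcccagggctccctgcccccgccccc
Tnfrsf1a (chr6:125349473-125349722, plus strand): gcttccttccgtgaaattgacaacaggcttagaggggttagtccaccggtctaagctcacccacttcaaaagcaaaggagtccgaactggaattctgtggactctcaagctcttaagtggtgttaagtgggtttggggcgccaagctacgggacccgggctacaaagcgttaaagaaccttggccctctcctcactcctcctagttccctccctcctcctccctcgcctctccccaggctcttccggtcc
Tnfrsf9 (chr4:150927749-150927998, plus strand): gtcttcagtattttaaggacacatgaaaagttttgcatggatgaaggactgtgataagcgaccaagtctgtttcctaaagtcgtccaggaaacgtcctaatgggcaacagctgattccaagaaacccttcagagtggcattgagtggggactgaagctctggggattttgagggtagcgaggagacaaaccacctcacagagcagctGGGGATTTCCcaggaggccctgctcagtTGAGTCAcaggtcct

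The search used GAGGAA for a PU.1-type ETS site, TGTGGT for RUNX, TGTTTAC for forkhead factors, TGACTCA for AP-1 and GGG, 2 bases of any kind and TTTCC for kappa B, on both strands, and no matches in the printed windows overlap. Of all 32851 promoter windows of this length, 23.3% held the ETS letters, 14.0% the RUNX letters, 3.17% the forkhead letters, 4.46% the AP-1 letters and 1.41% the kappa B letters. In the Ltbr window an ETS match begins 72 bases before the start, and the windows of Cd27 and Tnfrsf1a held none of the 5 motifs. In the Tnfrsf9 window a kappa B match begins 43 bases and an AP-1 match 15 bases before the start, while the window of its other annotated start held neither. Windows were found for 8 of the 9 members. Among those not printed, Tnfrsf18 and Tnfrsf1b held an ETS match and Fas an AP-1 match, and Tnfrsf4 held none. The windows of Tnfrsf4 and Tnfrsf18, adjacent genes that both fell, had 42.8% and 56.0% G and C, and the Ltbr window had 69.2%, against a median of 52.4% over all windows. These are letters in a window and no measurement of binding.

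**Figure D2:**
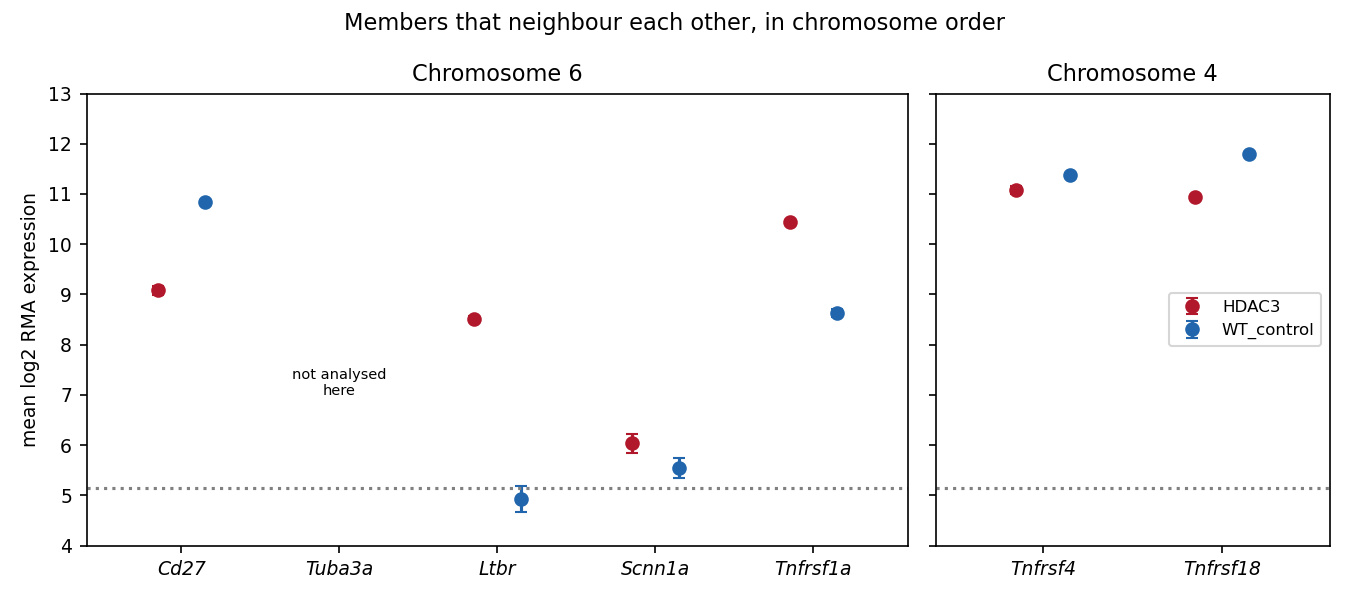
Mean log2 RMA expression (y axis) of the chromosome 6 genes from Cd27 to Tnfrsf1a and of the adjacent chromosome 4 genes Tnfrsf4 and Tnfrsf18 (x axis, in chromosome order, not to distance). HDAC3 samples are red and left, WT_control samples blue and right, error bars are SD with n = 3, and the dotted line is the top of the background at 5.16. Cd27 is lower in HDAC3 samples at 9.08 while Ltbr at 8.52 and Tnfrsf1a at 10.44 are higher than in WT_control samples.

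Among the members that are costimulatory receptors of T cells, Cd27 had the largest difference on the deposited scale. Relative to the CD3 genes its difference was the smallest in size of these members, when each gene is read by its brightest probe set. Cd27, the receptor for CD70, measured 9.10, 9.16 and 8.98 in HDAC3 samples, against 10.83, 10.89 and 10.81 in WT_control samples. All 3 HDAC3 values lay below every WT_control value, and the difference of -1.77 (SE 0.0696, limma adjusted p = 9.86e-07) is a 3.40-fold lower signal. A fall as large or larger was seen in 0.767% of all genes. Cd27 also fell relative to the mean of the CD3 genes, at -0.30 on that scale (SE 0.0698, limma adjusted p = 0.00336). That mean uses the brightest set of each CD3 gene, with differences from -1.21 (Cd3d) to -1.59 (Cd247). Dimmer Cd247 sets above background differed by -1.95 and -1.87, and the p-value does not cover this choice of reference. Cd27 was the only member below 0 on the CD3 scale, where 98.5% of all genes lay above 0 with a median of 1.30.

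Tnfrsf9 encodes 4-1BB, a receptor that activation induces on T cells. Its brightest probe set measured 9.16, 9.11 and 9.10 in HDAC3 samples, against 10.04, 9.99 and 10.08 in WT_control samples. It fell by 0.91 (SE 0.0584, limma adjusted p = 1.21e-05) on the deposited scale, but was 0.56 higher relative to the CD3 genes. A second set with 7.40, 7.62 and 7.52 in HDAC3 samples and 8.52, 8.87 and 8.71 in WT_control samples fell by 1.18, also without overlap, and was 0.28 higher relative to the CD3 genes. The dimmest set lay in the background in all 6 samples, at 3.36 to 3.99 in HDAC3 samples and 3.75 to 3.97 in WT_control samples, and gives no readable direction.

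Tnfrsf18, which encodes GITR, measured 10.94, 10.93 and 10.93 in HDAC3 samples, against 11.81, 11.82 and 11.76 in WT_control samples. The groups did not overlap, and it fell by 0.86 (SE 0.0557, limma adjusted p = 1.26e-05), with 6.62% of all genes as low or lower. Tnfrsf4, which encodes OX40 and lies next to Tnfrsf18, measured 11.16, 11.02 and 11.06 in HDAC3 samples, against 11.38, 11.34 and 11.41 in WT_control samples. Its difference of -0.30 (SE 0.0635, limma adjusted p = 0.00575) was the smallest of the 9 members, with 34.0% of all genes as low or lower. It differed from the median of all genes by -0.13 and was not called with cyclic loess normalization (-0.08, adjusted p = 0.350). Relative to the CD3 genes both turned, Tnfrsf18 to 0.61 and Tnfrsf4 to 1.17, both under the median of 1.30 of all genes on that scale.

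The death domain receptors moved in opposite directions. Fas, which triggers apoptosis through FADD and caspase 8, measured 7.69, 7.80 and 7.85 in HDAC3 samples, against 8.67, 8.61 and 8.73 in WT_control samples. Fas fell by 0.89 (SE 0.0693, limma adjusted p = 3.20e-05) without overlap, and was 0.57 higher relative to the CD3 genes. Tnfrsf1a, the TNF receptor type 1 that most cell types express, measured 10.47, 10.40 and 10.44 in HDAC3 samples, against 8.63, 8.72 and 8.54 in WT_control samples. It rose by 1.81 (SE 0.0669, limma adjusted p = 7.37e-07), a 3.50-fold higher signal, and 4.98% of all genes rose as much or more.

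Tnfrsf1b encodes TNF receptor type 2, which lacks a death domain. Its brightest probe set measured 10.85, 10.75 and 10.85 in HDAC3 samples, against 9.96, 10.06 and 9.99 in WT_control samples, and rose by 0.81 (SE 0.0629, limma adjusted p = 3.10e-05), 1.76-fold. The second Tnfrsf1b set, designed to the same source sequence, was dimmer and its groups overlapped, with 6.98, 6.70 and 7.02 in HDAC3 samples and 6.40, 6.79 and 6.63 in WT_control samples. The difference of that set, 0.29 with a 95% interval of -0.01 to 0.59, did not pass (limma adjusted p = 0.0861). It passed with cyclic loess and in some fits that left out a sample.

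Ltbr had the largest difference of the 9. The lymphotoxin beta receptor binds membrane lymphotoxin and LIGHT and is needed for lymph node formation. It measured 8.49, 8.49 and 8.56 in HDAC3 samples, against 5.21, 4.72 and 4.86 in WT_control samples. In WT_control samples 1 of 3 values lay just above the background and the other 2 within it, so the HDAC3 signal was at least 10.1-fold higher, measured from the top of the background range (limma adjusted p = 5.10e-07).

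Cd40, the receptor through which CD40 ligand on T cells activates B cells, dendritic cells and macrophages, rose in both of its probe sets. The brighter set measured 8.07, 8.09 and 8.05 in HDAC3 samples, against 6.18, 5.91 and 6.06 in WT_control samples, and rose by 2.02 (SE 0.0808, limma adjusted p = 1.07e-06). The other set measured 7.45, 7.31 and 7.67 in HDAC3 samples, against 5.50, 5.34 and 5.35 in WT_control samples, a difference of 2.08 (SE 0.102, adjusted p = 2.95e-06). The WT_control values of both sets lay just above the background, and the sets are named as able to match more than 1 transcript. The sets differed from each other by less than the 95% interval of either, 1.83 to 2.21 and 1.84 to 2.32.

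**Figure D3:**
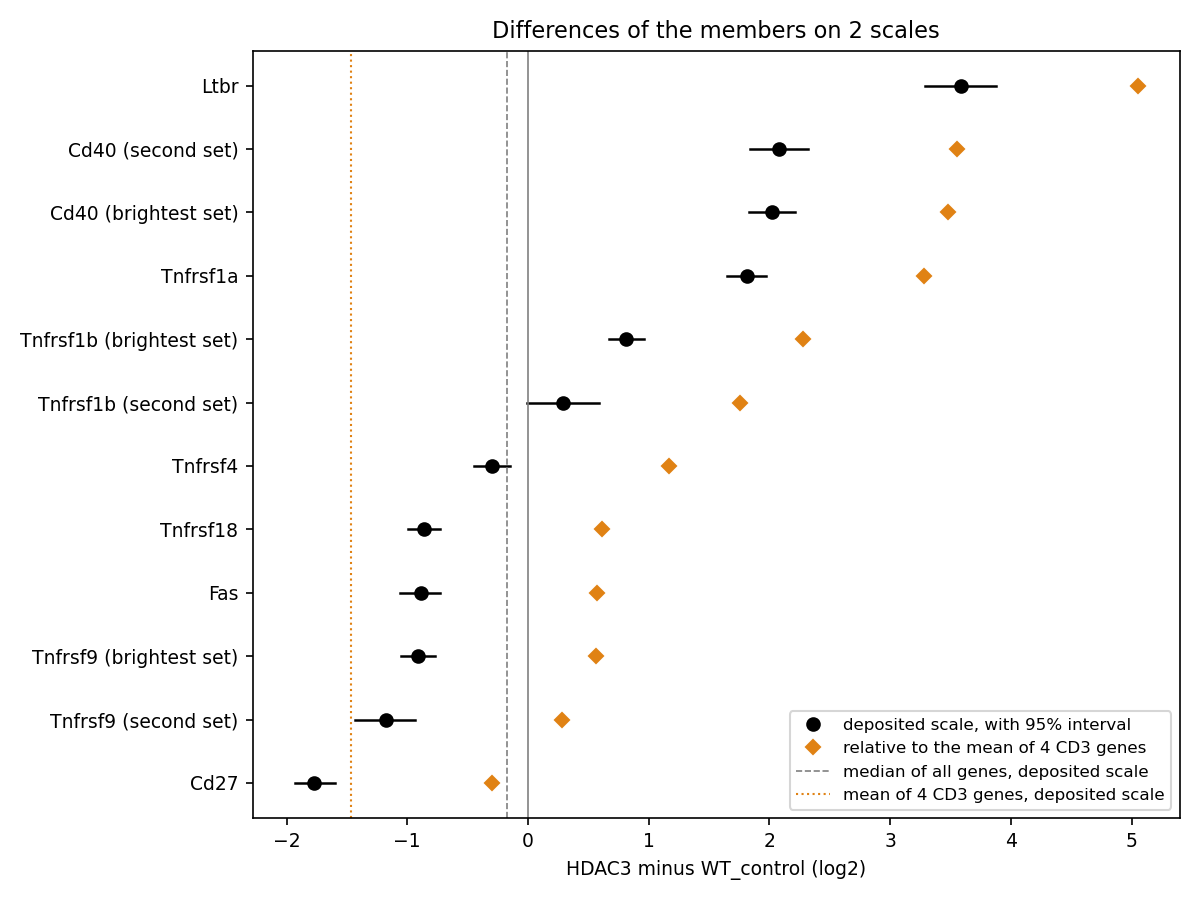
Differences, HDAC3 minus WT_control (x axis, log2), of the 12 probe sets of the 9 members that were above background in at least 1 group. Black points with 95% intervals are on the deposited scale, orange diamonds are relative to the mean of the 4 CD3 genes, the dashed line is the median of all genes at -0.17 and the dotted line the CD3 mean at -1.47. Cd27 lies left of the CD3 line, the other members that fell lie between it and 0, and Ltbr is farthest right at 3.59, a fitted value from a WT_control level in the background.

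By the distance between values centred on each gene's own mean over the 6 samples, the genes with the most similar profile were found among 8839 genes above background in a group. They were H2az2 and Asf1a for Tnfrsf18, Decr1 and Mrps12 for Tnfrsf4, Coa3 and Ms4a6b for Tnfrsf9, Acss2 and Pop5 for Cd27, and Zfp959 and Fam102a for Fas. For the members that rose they were Iigp1 and Ckb for Tnfrsf1a, Cmtm7 and Tbl1xr1 for Tnfrsf1b, Tcf4 and Aldh1b1 for Cd40, and Gca and Mmp8 for Ltbr. Distances ran from 0.0269 log2 for Tnfrsf18 and H2az2 to 0.229 for Ltbr and Mmp8. This rule itself picks genes with group differences close to the member's own, as with -0.87 for H2az2 beside -0.86 for Tnfrsf18. Mmp8 is also 1 of the neutrophil markers counted above, and whether near genes share a cell source was not tested.

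Of the lists that follow, 1 gene, the ligand Tnfsf11, fell relative to the CD3 genes, read by its brightest probe set. The falls given below for all other genes hold on the deposited scale and not on the CD3 scale. That scale adds 1.47 to each difference, background signal included, so counts on it are not read here. The counts of the 5 lists stand beside 22.0% of all genes that rose, 38.0% that fell and a median of -0.17, and none is read as particular to its list. Of 14 measured TNF family ligands 3 rose and 7 fell, with a median of -0.30, and 1 of the 7, Tnfsf4, the OX40 ligand, was in the background in both groups. Lta, whose product binds both TNF receptors and, with Ltb, the lymphotoxin beta receptor, measured 10.64, 10.61 and 10.67 in HDAC3 samples, against 9.23, 9.19 and 9.26 in WT_control samples, and rose by 1.41 (limma adjusted p = 1.15e-06). Its partner Ltb measured 12.36, 12.42 and 12.27 in HDAC3 samples, against 13.14, 13.15 and 13.15 in WT_control samples, and fell by 0.80 (adjusted p = 3.78e-05) on the deposited scale. The genes of the lymphotoxin subunits moved in opposite directions there.

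Other ligands can be set beside their receptors. Tnf averaged 8.39 ± 0.0273 in HDAC3 samples and 8.52 ± 0.0245 in WT_control samples (SD, n = 3 each), a difference of -0.13 that did not pass (limma adjusted p = 0.0909), while Tnfrsf1a and Tnfrsf1b rose. Tnfsf9, the 4-1BB ligand, averaged 6.88 in HDAC3 samples and 6.32 in WT_control samples and rose by 0.57, while Tnfrsf9 fell. Tnfsf8, the CD30 ligand, fell by 0.92, and Tnfsf14, which encodes LIGHT, fell by 0.63 (adjusted p = 0.000659). Cd40lg was at least 1.08-fold lower, with 4.51 in HDAC3 samples, in the background, and 5.27 in WT_control samples, so its level was barely readable in either group. Fasl differed by -0.20 and did not pass (adjusted p = 0.0664), while its second probe set fell (-0.51, adjusted p = 0.00129). Cd70 and Tnfsf4 were in the background in both groups. Tnfsf11, the ligand of RANK, fell by 1.88 (adjusted p = 2.09e-06) in its brightest probe set. A second Tnfsf11 set, above background in both groups, fell by 1.52 (adjusted p = 7.62e-05), close to the 1.47 fall of the CD3 mean. Its fall beyond the CD3 genes thus rests on the brightest set. The RANK gene Tnfrsf11a was at least 1.88-fold higher, with 6.21 in HDAC3 samples and a WT_control mean of 5.12 in the background. In WT_control samples 1 of its 3 values, 5.59, lay above the background.

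Among 16 other receptors of the superfamily 3 rose and 5 fell, 2 of the 5 in the background in both groups. Tnfrsf21, a death domain receptor also called DR6, measured 9.74, 9.69 and 9.63 in HDAC3 samples, against 4.02, 3.56 and 3.55 in WT_control samples, at least 23.1-fold higher (limma adjusted p = 5.43e-08). A second Tnfrsf21 set, with means of 7.62 in HDAC3 samples and 5.46 in WT_control samples, rose by 2.16, which is 4.48-fold. The size of the Tnfrsf21 rise thus depends on the probe set. Tnfrsf14, the receptor HVEM that binds LIGHT, rose by 1.06. Tnfrsf25, the death domain receptor DR3 of T cells, measured 8.55, 8.71 and 8.63 in HDAC3 samples, against 9.90, 9.93 and 9.95 in WT_control samples, and fell by 1.30. Tnfrsf13b, the receptor TACI, and Tnfrsf12a, the receptor for TWEAK, also fell, with differences of -0.90 and -0.63.

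Downstream of the receptors, 3 of 12 adaptor genes rose and 6 fell, with a median of -0.21. Traf5, Traf4, Traf1 and Tank, which encode signal carriers and a TRAF partner, fell, with differences of -1.14, -1.12, -0.99 and -0.93. Traf2 fell by 0.26, Traf6 differed by -0.10 (limma adjusted p = 0.262), though a second set above background fell (-0.32, adjusted p = 0.0194), and the death domain adaptors Fadd and Tradd by -0.16 and -0.02 (adjusted p = 0.104 and 0.836). Tifa, a TRAF6-binding adaptor, measured 10.13, 10.26 and 10.07 in HDAC3 samples, against 4.94, 5.23 and 5.15 in WT_control samples, at least 31.3-fold higher. Siva1, which encodes a CD27-binding protein, rose by 0.68, and 1 of its 3 other sets did not pass (0.22, adjusted p = 0.0755). Traip, a TRAF-interacting protein, rose by 0.88 in its brightest probe set, while a second set differed by -0.23 and did not pass (adjusted p = 0.166).

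Of 7 genes of death signalling 2 rose and 4 fell, with a median of -0.37. Casp8, the caspase that Fas activates, fell by 0.48. Casp6 and Daxx fell by 0.77 each, and Faim, a Fas inhibitor, fell by 0.37. Ripk3, the kinase of necroptosis, rose by 1.07 and Bid, a substrate of caspase 8, by 0.80, while a second Bid set did not pass (0.20, adjusted p = 0.0884). Cflar, which blocks caspase 8, differed by -0.01 (adjusted p = 0.907).

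Of 14 genes of the ubiquitin and kinase steps to NF-kB, 2 rose and 6 fell, with a median of -0.11 close to the -0.17 of all genes. Tab2 and Sharpin rose by 0.66 and 0.31, and Map3k14, the kinase of the alternative NF-kB pathway on which Ltbr, Cd40 and Cd27 draw, fell by 0.56. Tab3, Ikbkb, Tnip1 and Map3k7 fell, with differences of -0.41, -0.40, -0.36 and -0.28. The feedback gene Tnfaip3 differed by 0.18 (limma adjusted p = 0.0668) and Birc3 by 0.15 (adjusted p = 0.0734), while a second Birc3 set rose (0.45, adjusted p = 0.0207). Of the further sets above background, 1 of Map3k7 (-0.26, adjusted p = 0.0507) and 1 of Ikbkb (-0.04, adjusted p = 0.803) did not pass. For Ikbkg the brightest set differed by 0.10 and did not pass, whereas its other 3 sets fell, with differences of -0.51, -1.06 and -0.83, so its direction depends on the probe set. With cyclic loess 6 of these genes rose and 3 fell, so the counts of this list depend on the normalization.

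**Figure D4:**
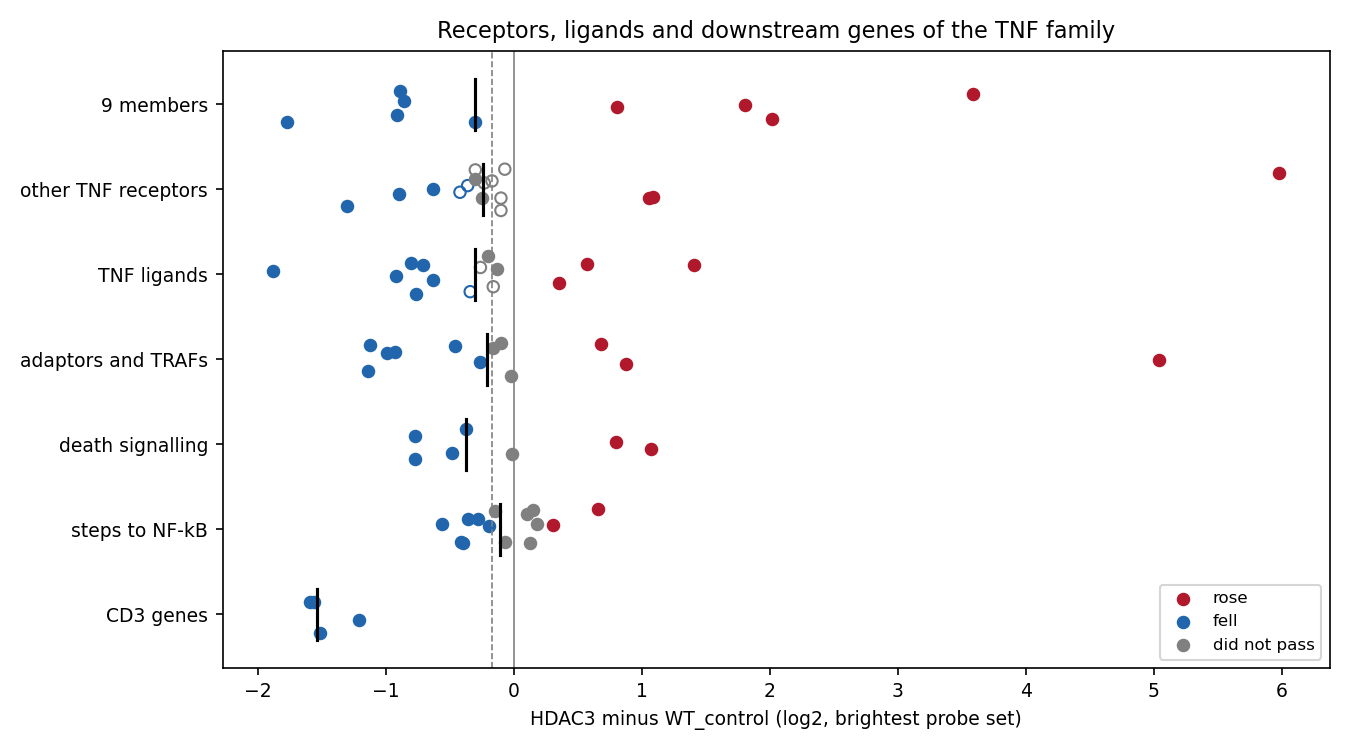
Differences, HDAC3 minus WT_control (x axis, log2, brightest probe set), of each measured gene in the 9 members, 16 other receptors, 14 ligands, 12 adaptors, 7 death signalling genes, 14 genes of the steps to NF-kB and 4 CD3 genes (rows, spread vertically only to separate points). Red genes rose, blue genes fell and grey genes did not pass, open circles are in the background in both groups, black bars are list medians and the dashed line is the median of all genes. List medians lie between -0.37 and -0.11 except for the CD3 genes at -1.53.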

How the data were processed

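The authors' deposited table held log2 expression values per probe set for 6 Affymetrix Mouse430a arrays, normalized by robust multiarray average with MAYDAY 2.12, per the labels' design text. Because RMA makes the arrays' value distributions alike, total RNA per cell is not measured. Of 22690 probe sets, 64 controls were left out. Of the 22626 others, 20380 had 1 gene symbol in the platform annotation, 691 several and 1555 none, and 20351 symbols matched RefSeq (GRCm38.p6) by gene identifier.

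Sample titles gave the groups. The test was two-sided, in limma 3.58.1 (lmFit and eBayes, R 4.3.3) over all probe sets with Benjamini-Hochberg adjustment, in place of the authors' Student test. The adjusted p threshold was 0.05 and the fold threshold 2. A gene was represented by its brightest probe set over the 6 samples. Intervals are 95% and the number of arrays limits the precision.

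The named genes were the members with every probe set, Hdac3, CD3 genes, ligands, the list genes with the smallest p or past 2-fold, and the 2 nearest genes per member. Members and lists were chosen with earlier results of these data known. The fit was tested on simulated data, with 50 probe sets changed at each size. It recovered 42% of changes of 0.5 log2, 78% of 1 log2 and 100% of 2 log2, with 11 false calls among 22626 probe sets. Far fewer probe sets were changed there than were called here, so these shares need not carry over. Alternatives were the replicate number as a block, 3 normalizations, values relative to the CD3 genes, a filter on dim probe sets, the methods' t-test, a trended robust prior, array weights, each sample left out, probe sets matching several transcripts left out, a 1.5-fold threshold and a mean over each gene's probe sets.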

Additional observations from a re-analysis of the deposited data

How the results depend on the processing

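All probe sets of Ltbr, Cd40, Tnfrsf1a and Cd27 and the brightest set of Tnfrsf1b kept direction and call in every alternative that gave them a value. Relative to the CD3 genes, Tnfrsf18 (0.61), Tnfrsf4 (1.17), Tnfrsf9 (0.56, 0.28 and, in the background, 1.27) and Fas (0.57) turned and the second Tnfrsf1b set (1.76) was called, because that scale adds 1.47 to each difference. On it 22308 probe sets passed, 18298 of them past 2-fold, 8 members rose and 1 fell, and rises and falls numbered 15 and 0 for other receptors, 13 and 1 for ligands, 12 and 0 for adaptors, 7 and 0 for death signalling and 14 and 0 for the steps to NF-kB. These counts follow from the added 1.47 and include genes in the background, 8 other receptors and 3 ligands in both groups. The median of all genes was -0.17 as deposited, 0.00 with cyclic loess, -0.33 with median centring and 1.30 relative to the CD3 genes. The share of called probe sets that were higher was 35.0% as deposited, 55.7% with cyclic loess and 21.7% when arrays were centred on their medians.

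With cyclic loess Tnfrsf4 was not called (-0.08, adjusted p = 0.350), the second Tnfrsf1b set was called (0.46, adjusted p = 0.0164), and 6 genes of the steps to NF-kB rose and 3 fell. With median centring 9 other receptors and 11 ligands fell and 1 gene of the steps to NF-kB rose. A trended robust prior also called the second Tnfrsf1b set (0.29, adjusted p = 0.0425). Without the dimmest probe sets 4 genes of the steps to NF-kB rose. Without probe sets that can match several transcripts fewer sets were tested, and 8525 passed, 1816 of them past 2-fold. In that fit 0 adaptors rose, since the brightest sets of Tifa, Siva1 and Traip were among those left out. Tnfrsf18, Cd40 and 1 Tnfrsf9 set had no value there. A 1.5-fold threshold passed 5841 probe sets, against 2769 at 2-fold. Leaving out 1 sample in turn gave -0.37 to -0.05 for the background set of Tnfrsf9, called without HDAC3 replicate 3, and 0.18 to 0.39 for the second Tnfrsf1b set, called without HDAC3 replicate 2 or WT_control replicate 2. Other causes were not tested.

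Replicate numbers gave no sign of pairing. Deviations from the group means correlated by 0.09, 0.08 and -0.19 between samples of equal number, and by -0.25 to 0.21 between the others. With 3 samples in each group these correlations constrain each other, so they cannot show that the samples were unpaired. With the number as a block 12534 probe sets passed, against 13032 without it, and the 9 members kept their calls.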
